A study of Nematostella vectensis with 27 samples.

Results

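Solitary peaks are accessible chromatin regions that lie far from every other peak. They were chosen by the measured distance between peak starts: a member starts more than 5000 bp from both the previous and the next peak on its chromosome, and the 30 peaks that come first or last on a chromosome were left out. In all, 2848 of the 112673 peaks on the 15 chromosomes qualified (2.53%), out of 112728 peaks in the list of the sea anemone Nematostella vectensis. The list belongs to a series of 27 libraries in 9 groups, 25 of chromatin accessibility (ATAC) and 2 of RNA, all from single nuclei or cells. It does not name the libraries it was made from. The 16 fixed and the 1 fresh adult ATAC libraries came from wild-type polyps, 2 to 4 per preparation, and a multiome preparation of fresh adult nuclei added 1 ATAC and 1 RNA library. A further adult library held RNA read from the 5′ end. The 1 fixed and 1 fresh gastrula libraries came from wild-type embryos pooled by the 300 and collected at 26 hours post fertilization. The 2 fixed and 3 fresh neuron libraries held elav+ cells sorted from NvElav1::mOrange polyps, in which the reporter marks the cells that use the elav1 promoter and not every neuron.

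Open chromatin is found where nucleosomes are displaced, typically at promoters, where transcription starts, and at distal elements such as enhancers, which bind transcription factors. The list gives no score, library or cell type per peak. Depth is unknown, and a site open in a few rare cells cannot be told apart here from one open in all cells. A gap in the list means only that no peak is listed there.

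The distance to the nearer neighbour ran from 5001 bp to 238.265 kb, with a median of 6433.5 bp and an interquartile range of 5604.5 to 8114.75 bp. The median among the 109795 peaks with a neighbour closer than the limit was 484 bp. Most members therefore sat just past the limit, and 430 were more than 10000 bp from any other peak, 142 more than 20000 bp and 12 more than 100 kb. The 2 members nearest to the limit, at 5001 and 5002 bp on chromosomes 6 and 4, and the 2 peaks just short of it, both at 4999 bp on chromosomes 7 and 11, all lay inside protein-coding genes. Few as they are, the members with the sequence up to their neighbours on either side took up 65.9 Mb, or 24.6% of the 268 Mb spanned by genes and peaks.

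All peaks but 1 in the list are either 250 bp long or 1 bp shorter; the latter are named short peaks here and carry their exact length in the plots. The 5 most isolated peaks were all short and all lay outside annotated genes, with no protein-coding gene in the 100 kb around them. The most isolated covered bases 15844638 to 15844886 of chromosome 13, with its neighbours 414 kb and 238 kb away and the nearest protein-coding gene end at 285 kb. The next, at bases 368330 to 368578 of chromosome 11, had neighbours 187 and 165 kb away. The third, at bases 2031516 to 2031764 of chromosome 5, had neighbours 348 and 161 kb away. The remaining 2 follow each other on chromosome 7, at bases 563244 to 563492 and 722049 to 722297, and are each other's nearer neighbour at 159 kb. These positions are as listed; the peak file names no genome build.

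Solitary peaks were found at a similar density on every chromosome. A chromosome held 130 to 242 of them, with a median of 193. Their density was 10.6 ± 0.967 per Mb (SD, n = 15 chromosomes), lowest on chromosomes 4 and 15, at 8.90 and 9.48 per Mb, and highest on chromosomes 14 and 5, at 12.4 and 11.6 per Mb. Chromosome 14 had a low density of peaks of all kinds, 375 per Mb, and chromosome 5 the lowest, 357 per Mb, so the solitary share of their peaks was 3.29% and 3.26% against 2.08% on chromosome 4. Of 2676 windows of 100 kb, 1685 (63.0%) held at least 1 solitary peak, and no window held more than 6.

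**Figure D1:**
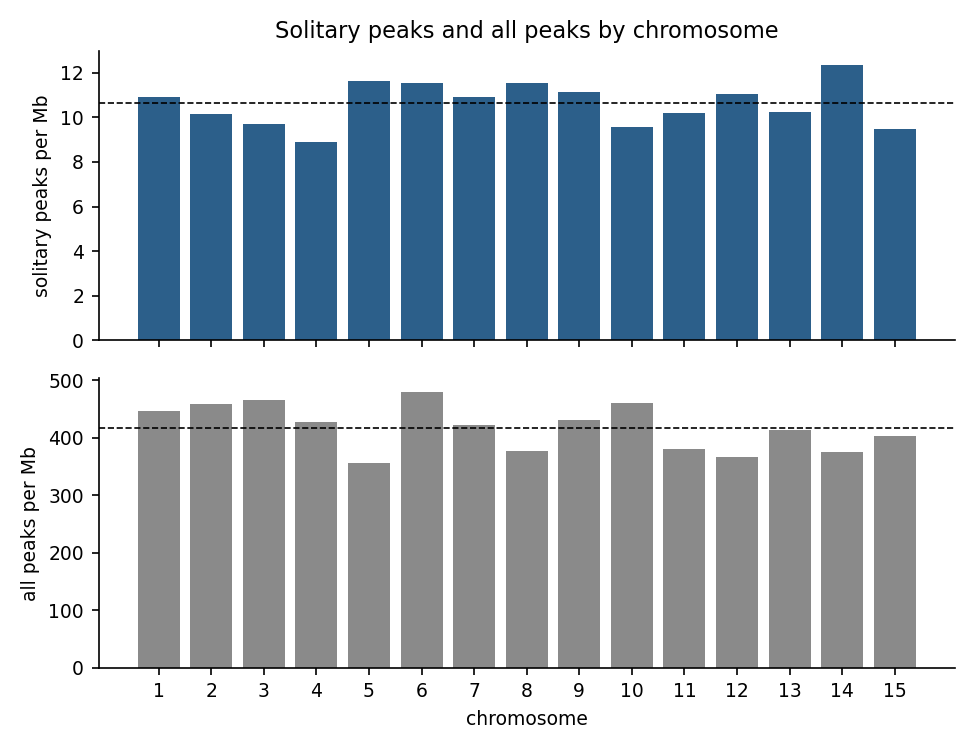
Solitary peaks per Mb (top) and all peaks per Mb (bottom) on each of the 15 chromosomes; dashed lines are the means over chromosomes. Solitary peaks ranged from 8.90 per Mb on chromosome 4 to 12.4 on chromosome 14, and all peaks from 357 per Mb on chromosome 5 to 479 on chromosome 6.

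Solitary peaks differed from the rest in which of the lengths they had. Of the members, 1985 (69.7%) were short and 863 were 250 bp long. The short share was 69.8% ± 4.54 over the chromosomes (SD, n = 15) and 27.1% ± 4.30 in the other peaks, and it was the higher one on 15 of 15 chromosomes. In the 41201 peaks with both neighbours within 1000 bp it was 14.2%. It was higher the greater the isolation, from 17.9% of peaks with a neighbour within 500 bp, through 66.6% at 5000 to 7500 bp and 79.9% at 10000 to 20000 bp, to 98.6% of the 142 peaks beyond 20000 bp. What sets the length is not given in the sources used here. Since length moves with isolation, the class and gene-end results are given for each length, and its part in them was not tested. No p is given for these comparisons, because the positions that chose the members also decide where they lie and chromosomes are not replicates of an experiment.

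Solitary peaks lay farther from the ends of protein-coding genes than other peaks, at a median of 5622.5 bp against 1407.5 bp, and the median was higher on 15 of 15 chromosomes. By length the medians were 7076 bp against 2570 bp for short peaks, higher on 15 of 15 chromosomes, and 288.5 bp against 1178.5 bp for 250-bp peaks, lower on 13 of 15. Within 500 bp of a gene end lay 616 of them (21.6%, against 26.5% of other peaks). Inside a gene but farther from its ends lay 1528 (53.7%, against 53.8%), and outside genes lay 704 (24.7%, against 19.7%). Over the chromosomes these shares were 21.5% ± 4.17, 53.4% ± 5.16 and 25.1% ± 6.77 (SD, n = 15). Both ends of an annotated span count, since the gene table gives no strand. The share at gene ends was below that of other peaks on 14 of 15 chromosomes and the share outside genes above it on 12 of 15, while the share inside genes was higher on 8 and lower on 7. Over both lengths together, the difference outside genes was not seen without the outer 1 Mb at each end, an alternative chosen after seeing the data. In that setting, 19.1% of 2495 solitary and 19.0% of other peaks lay outside genes. The solitary share was higher on 6 and lower on 9 chromosomes. The share at gene ends was then 23.7% against 26.9%, lower on 13 of 15 chromosomes. By length, the shares outside genes differed in that setting too, in opposite directions for short and 250-bp peaks.

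Split by length, the shares at gene ends and outside genes went in opposite directions. Solitary 250-bp peaks lay at gene ends in 52.1% ± 7.75 of cases (SD, n = 15 chromosomes), against 29.4% ± 1.95 of other 250-bp peaks, and the share was higher on 15 of 15 chromosomes. The chromosome values did not overlap, at 40% to 63.0% and 25.3% to 32.4%. They were less often outside genes, 9.62% against 18.9%, also on 15 of 15 chromosomes. Solitary short peaks went the other way, with 8.31% ± 2.34 at gene ends against 18.0% ± 2.39 of other short peaks, lower on 15 of 15 chromosomes, and 31.3% against 21.8% outside genes, higher on 15 of 15. Inside genes the short shares were 60.5% and 60.2%. Without the outer 1 Mb at each end, the gene-end shares were 9.23% against 18.7% for short peaks and 53.5% against 29.8% for 250-bp peaks, again lower and higher on 15 of 15 chromosomes. The short share outside genes was then 24.1% against 20.4%, higher on 9 and lower on 6 chromosomes. For 250-bp peaks the share outside genes was 8.83% against 18.6%, higher on 1 and lower on 14 chromosomes. Inside genes the short share was then 66.7% against 60.9%, higher on 12 and lower on 3 chromosomes. The 250-bp share inside genes was 37.7% against 51.6%, lower on 15 of 15. The gene-end share also varied with isolation among the 250-bp peaks. It was 33.5% within 500 bp of the nearer neighbour, 22.7% at 1000 to 2000 bp and 32.2% at 2000 to 5000 bp. At 5000 to 7500 bp it was 51.8%, and at 10000 to 20000 bp it was 56.9% (33 of 58). For the short peaks the direction depended on counting neighbours of both lengths: when isolation was judged among short peaks alone, an alternative chosen after seeing the data, 23.1% of 8097 isolated peaks lay at gene ends against 15.4% of the rest. For 250-bp peaks alone the direction was kept, with 38.5% of 3289 isolated peaks at gene ends against 29.5% of the rest.

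**Figure D2:**
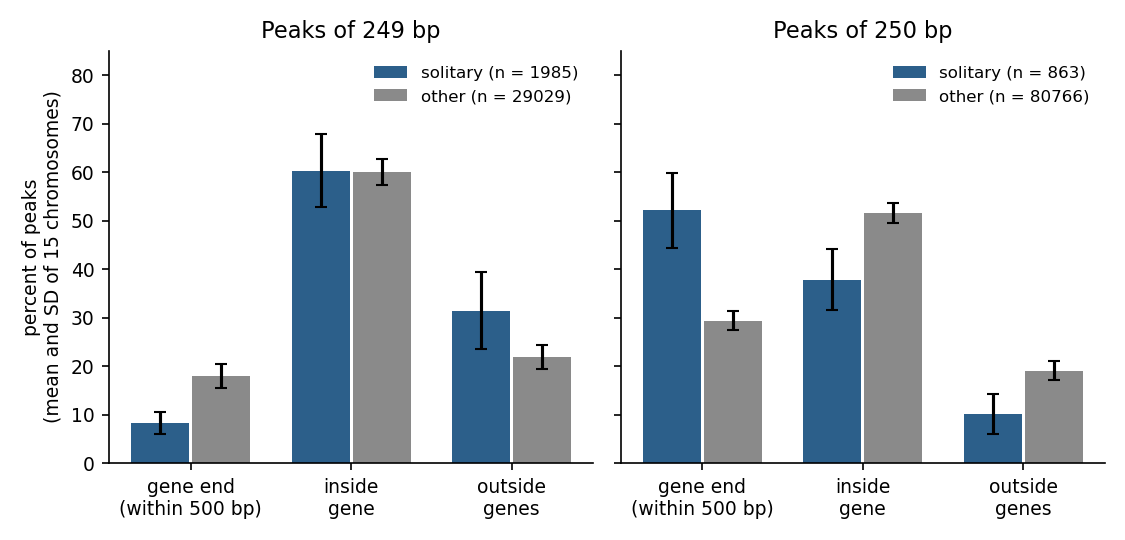
Percent of solitary peaks (blue) and other peaks (grey) at gene ends, inside genes and outside genes, for short peaks (left) and 250-bp peaks (right); bars are means and error bars SDs over 15 chromosomes. At gene ends the solitary mean was 8.31% against 18.0% for short peaks and 52.1% against 29.4% for 250-bp peaks.

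**Figure D3:**
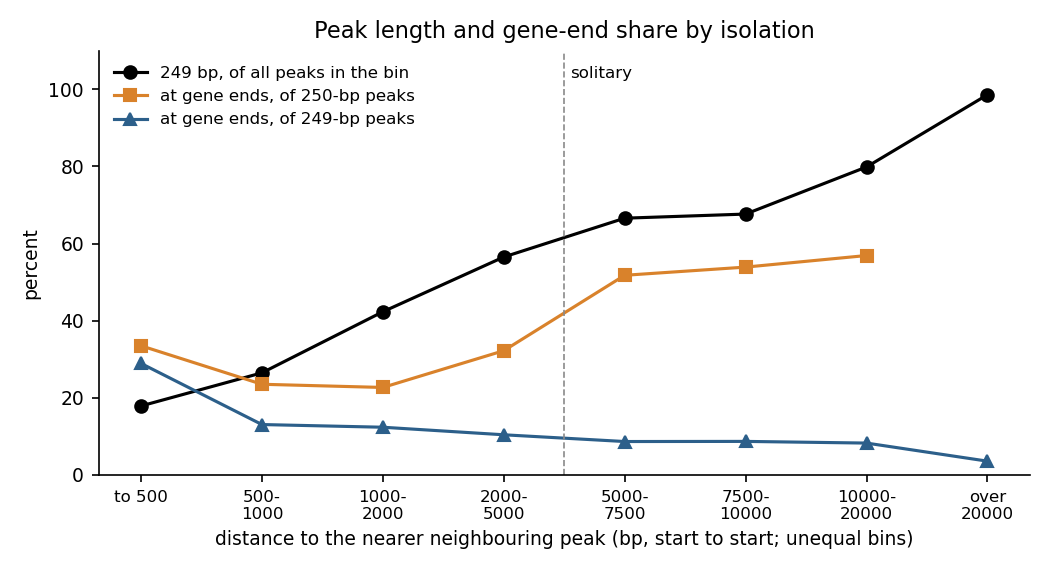
Percent of peaks that were short (black), and percent at gene ends among 250-bp (orange) and short (blue) peaks, by distance to the nearer neighbouring peak in bp; bins are unequal, peaks right of the dashed line are solitary, and the last bin of 250-bp peaks (2 peaks) is not drawn. The black line ends at 98.6%, the orange line goes from 33.5% through 22.7% to 56.9% and the blue line from 28.9% to 3.57%.

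Most solitary 250-bp peaks at gene ends were centred close to the end. Of these 452 peaks, 393 (86.9%) were centred within 100 bp of the end, against 44.6% of the 23918 other 250-bp peaks at gene ends. The share was higher on 15 of 15 chromosomes, and its chromosome values, 75.9% to 96%, lay above those of the other peaks, 42.3% to 46.5%. The median centre lay 8.5 bp outside the gene, with an interquartile range from 10.75 bp inside to 30.75 bp outside. Solitary short peaks at gene ends were spread more widely. Of 164, 40 (24.4%) were centred within 100 bp, against 19.4% of other short peaks, and the share was higher on 9 of 15 chromosomes. At a gene end a solitary peak is alone, whereas several other peaks can share the window of 500 bp. The distance rule thus bears on these contrasts, and its part was not tested.

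**Figure D4:**
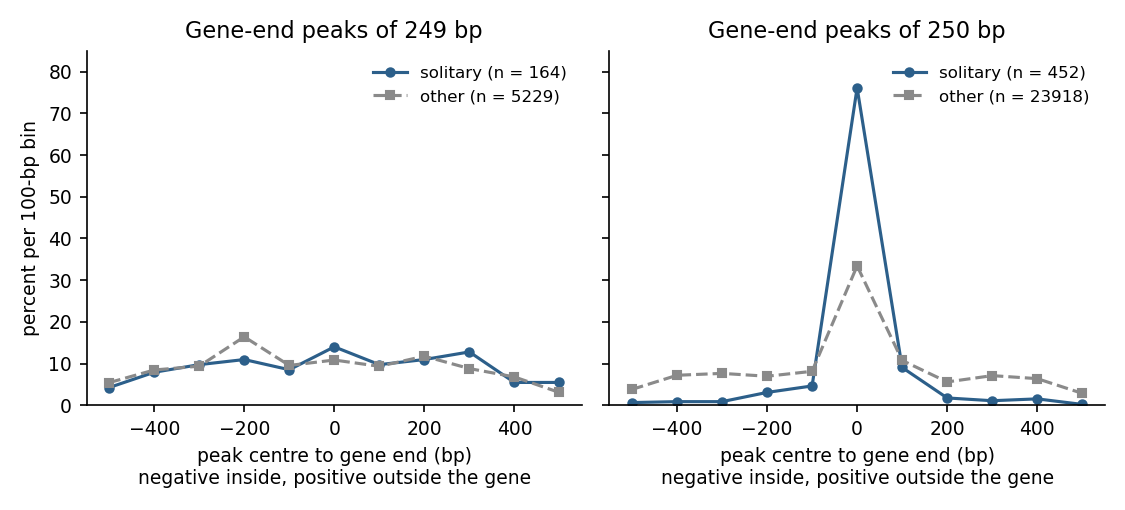
Distance from gene end to peak centre in bp, in bins of 100 bp, for short (left) and 250-bp (right) peaks at gene ends, as percent of the solitary (blue) or other (grey) peaks; negative values are inside the gene and the outermost bins stop at 500 bp. The central bin held 76.1% of solitary and 33.4% of other 250-bp peaks, and 14.0% and 10.9% of short peaks.

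Many of these peaks stood between a pair of closely spaced genes. Of the 452 solitary 250-bp peaks at gene ends, 186 (41.2%) had the facing ends of 2 non-overlapping protein-coding genes within 500 bp, against 18.8% of other 250-bp gene-end peaks, and the share was higher on 15 of 15 chromosomes. The median gap between the paired genes was 67.5 bp for the solitary peaks and 211 bp for the others. In the short peaks the share was 11.0% (18 of 164) against 15.4%. A solitary peak is alone at such a gene pair, whereas several other peaks can share it. The distance rule thus bears on these contrasts too, and its part was not tested. Without strand, genes transcribed away from a shared promoter cannot be told apart here from genes in tandem or genes that converge.

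Some solitary peaks were the sole peak of a gene, which the distance rule itself favours. With 500 bp added at each end of the span, 2242 of 19206 protein-coding genes contained exactly 1 peak, and in 440 of them (19.6%) that peak was solitary. These 440 genes were 20.9% of the 2108 genes with a solitary peak. They shared 390 peaks (13.7% of all solitary peaks), since a peak between a gene pair can serve both. The peak lay at a gene end for 352 of the 440 and was 250 bp long for 298. Their median span was 4.4375 kb, against 3.163 kb for genes whose single peak had a close neighbour beyond the gene. The longest were LOC116613001 on chromosome 14, with a span of 58.2 kb and a short peak 14.5 kb from its nearer end, LOC5503434 on chromosome 11, with 46.6 kb, and LOC5508900 on chromosome 2, with 37.7 kb and a 250-bp peak 39.5 bp from its end. LOC116601894 on chromosome 9 and LOC125556718 on chromosome 8 spanned 29.3 and 28.1 kb. The symbols are numbered names, and the gene table gives no products for them.

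Among the 10 gene ends with the most isolated peaks, 8 belonged to genes without another peak; each of these genes is shorter than the distance to the next peak, so the choice of peaks fixed this. LOC125573226 on chromosome 10, with a span of 3.32 kb, had its single peak 2 bp from a gene end and 88.9 kb from the next peak. The peak of LOC125557229 on chromosome 12 was 57.7 kb from the next one, that of LOC125572225 on chromosome 1 was 29.3 kb, and that of LOC125561311 on chromosome 3 was 26.0 kb. LOC5519377, LOC125559880, LOC5521878, LOC116617942, LOC125569625 and LOC125563210 followed with 20.7 to 15.9 kb. Of these 10 peaks, only that of LOC5521878 on chromosome 10 was 250 bp long; it was centred 6.5 bp inside the gene, which spanned 25.7 kb and had 6 peaks.

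Inside genes, solitary peaks sat in long genes with few peaks. The 1528 members in this class lay in 1283 genes with a median span of 24.4 kb, against 16.6 kb for other peaks inside genes, and 950 (62.2%) lay in genes over 20 kb, against 41.2%. The host genes had a median of 2.30 peaks per 10 kb, against 5.96. The median member was 6831 bp from the nearer end of a gene, against 2710.5 bp. For 164 members (10.7%) the host contained no other peak. By length, the median spans were 25.2 against 21.2 kb for short peaks and 23.0 against 15.0 kb for 250-bp peaks. The hosts had medians of 2.31 against 4.00 peaks per 10 kb for short peaks and 2.20 against 7.13 for 250-bp peaks. The distance rule itself favours long spans with few peaks, so these values describe the members and support nothing further. Among all protein-coding genes, 828 of 2311 over 20 kb (35.8%) had a solitary peak within the span or 500 bp of it, compared with 255 of 8082 under 5 kb (3.16%).

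The genes with the most solitary peaks were mostly long. LOC116609597 on chromosome 12 spanned 126 kb and contained 17 peaks, of which 9 were solitary, or 1.35 peaks per 10 kb. LOC5502675 on chromosome 1, the fourth longest gene at 156 kb, had 8 solitary peaks among 31. LOC5516654 on chromosome 14, the longest at 193 kb, had 5 among 56. LOC5508249 on chromosome 7 was far shorter, at 46.6 kb, yet 5 of its 6 peaks were solitary. LOC5513895 on chromosome 14, LOC5520309 on chromosome 1, LOC5506716 on chromosome 6 and LOC116608883 on chromosome 12 also had 5 each, and LOC5521826 on chromosome 2 and LOC5512112 on chromosome 3 had 4. Of the solitary peaks in LOC5520309, 2 of 5 were short; in the other 9 genes they were mostly or all short.

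Outside protein-coding genes, solitary peaks lay far out. The median distance of the 704 members to a gene end was 10.1 kb, with an interquartile range of 3.19 to 61.2 kb, against a median of 1.90 kb for other peaks outside genes. They were more than 50 kb away in 189 cases (26.8%), against 1.91%, and more than 100 kb away in 137. Of the 704, 621 were short. These had a median distance of 12.0 kb, against 3.14 kb for other short peaks outside genes, and 29.8% of them were more than 50 kb away, against 5.62%. The 83 of 250 bp had a median distance of 3.61 kb, against 1.64 kb for other 250-bp peaks. Of all 652 judged peaks more than 50 kb from a protein-coding gene end, inside or outside a gene, 198 (30.4%) were solitary.

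In gene-poor sequence solitary peaks were about as dense as elsewhere, while other peaks were scarce. Windows of 100 kb with no protein-coding gene had 10.7 solitary peaks per Mb out of 33.6 peaks per Mb in all, so 32.0% of their peaks were solitary. Windows with 1 to 4 genes had 13.7 per Mb, those with 5 to 8 genes 11.4, those with 9 to 12 genes 9.47 and those with 13 or more 8.42, out of 500 peaks per Mb, or 1.68%. The distance rule itself favours a high solitary share where peaks are scarce, so these shares describe the members only. The make-up of the solitary peaks differed along this series of windows. The short members went from 10.6 to 4.19 per Mb between windows without a gene and the most gene-rich ones, and the 250-bp members went from 0.160 to 4.23 per Mb. Members at gene ends made up 7.61% of the solitary peaks at 1 to 4 genes per window and 47.5% at 13 or more. Windows with more genes hold more gene ends, so the grouping itself favours this difference. The share of all peaks at gene ends was not computed for these windows. Centred on the peak itself, a 100-kb window was free of protein-coding genes for 189 members (6.64%), of which 185 were short. These are the same 189 members given above as outside genes and more than 50 kb from a gene end. Of other peaks 0.375% had such a window, and the solitary share was higher on 15 of 15 chromosomes. Within short peaks it was 9.32% against 1.23%, also higher on 15 of 15. Within 250-bp peaks it was 0.463% (4 peaks) against 0.0693%, higher on 4 and lower on 6 chromosomes.

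**Figure D5:**
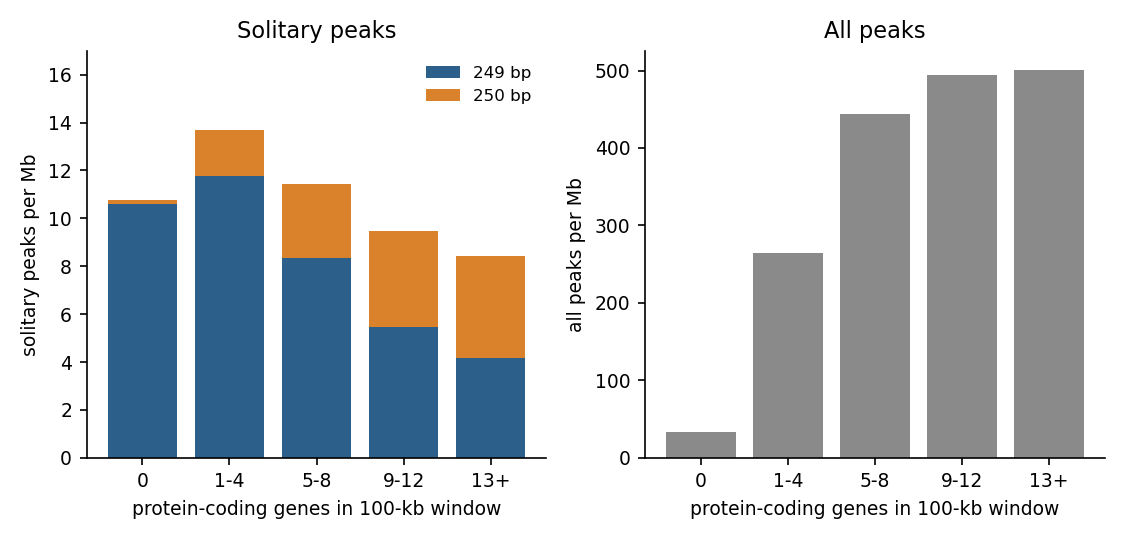
Solitary peaks per Mb by length (left) and all peaks per Mb (right) in 100-kb windows grouped by the number of protein-coding genes they overlap. Solitary peaks lay between 8.42 and 13.7 per Mb while all peaks went from 33.6 to 500 per Mb, and the 250-bp part of the solitary peaks went from 0.160 to 4.23 per Mb.

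The ends of the chromosomes, a position looked at after the data were seen, were also poor in genes and rich in solitary peaks relative to others. In the outer 250 kb of each chromosome end, 7.12% of peaks were solitary, against 2.27% at 4 Mb or more from an end. The density of solitary peaks was nearly the same in both, 11.6 and 10.5 per Mb. That of all peaks was 163 and 465 per Mb, and that of protein-coding genes 21.9 and 80.1 per Mb. Here too the distance rule itself favours a high solitary share where peaks are scarce. In the outer 1 Mb, 10.7% of the peaks outside genes were solitary (227 of 2128), against 2.36% in the rest of the chromosomes. For peaks at gene ends the shares were 1.96% and 2.07%. Of solitary short peaks, 15.4% lay in the outer 1 Mb, against 8.87% of other short peaks, higher on 14 of 15 chromosomes. Among 250-bp peaks it was 5.56% of solitary and 4.58% of other peaks, higher on 9 and lower on 6 chromosomes. The solitary share was above the whole-genome value at 25 of 30 chromosome ends and varied from 1.65% to 83.3%. The highest was 10 of the 12 peaks at the low-numbered end of chromosome 7. Chromosome lengths are taken from the last gene or peak, so the true ends may lie farther out.

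Some solitary peaks followed one another, which the rule favours, since neighbouring peaks share a gap and a solitary peak already gives its neighbour a long gap on that side. They formed 2174 runs without another kind of peak between, 1721 of them of a single peak, 333 of a pair and 120 of 3 or more, and 39.6% of members stood in a run of 2 or more. The 3 longest runs consisted entirely of short peaks outside genes, and each lay near a chromosome end. On chromosome 7, 10 solitary peaks stretched from base 15765 to 992522, across 977 kb with 6 protein-coding genes. On chromosome 15, 10 ran from base 12818098 to 13362423, with 1 such gene. On chromosome 10, 8 ran from base 31006 to 405642, with none. Over the 23 runs of 5 or more, 138 of 145 peaks were short and 108 lay outside genes, but 10 lay at gene ends and 27 inside genes. Of these 23 runs, 12 lay within 2 Mb of a chromosome end. Of all 2848 solitary peaks, 353 lay in the outer 1 Mb and a further 328 at 1 to 2 Mb from an end.

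Among genes that code for no protein, transfer RNA genes had the second most solitary peaks after long non-coding RNA genes. These small genes, which RNA polymerase III transcribes, occur here in arrays, and 9535 of them are annotated on the chromosomes. Inside or within 500 bp of a tRNA gene lay 63 solitary peaks (2.21%), against 424 other peaks (0.386%), a ratio of 5.73. All 63 were short, compared with 227 (53.5%) of the 424, and the ratio counts both lengths. Among short peaks alone, 63 of 1985 solitary and 227 of 29029 other peaks lay there. The solitary peaks at tRNA genes were found on 13 chromosomes, with 11 each on chromosomes 1 and 7, and 48 of them lay outside protein-coding genes. A median of 30 tRNA genes lay within 5 kb of such a peak, against 5 for the other peaks at tRNA genes. The peaks were not tied to 1 kind of tRNA: they touched genes of 41 symbols, led by Trnam-cau, for methionine, at 6 peaks and Trnap-ugg, for proline, at 5. In all, 198 of 9535 tRNA genes (2.08%) had a solitary peak in or beside them, against 11.0% of protein-coding genes, and 8.65% had any peak, against 91.1%.

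Ribosomal RNA genes had 13 solitary peaks, all short and outside protein-coding genes, against 22 other peaks. This was 0.456% of solitary and 0.0200% of other peaks, a ratio of 22.8 over both lengths, higher than that of tRNA genes. Among short peaks alone, 13 of 1985 solitary and 13 of 29029 other peaks lay at rRNA genes. Of the 4060 rRNA genes, 40 were touched (0.985%). Small nuclear RNA genes, most of which encode RNAs of the spliceosome, had 5 solitary and 49 other peaks (0.176% against 0.0446%), with 8 of 1752 genes touched, and small nucleolar RNA genes had 1 and 12 (0.0351% against 0.0109%), with 1 of 55 touched. Pseudogenes had 24 solitary peaks (0.843%, against 0.312% of other peaks), with 26 of 761 touched. Long non-coding RNA genes went the other way, with 117 solitary peaks (4.11%, against 7.59%) and 116 of 3250 genes touched (3.57%). With counts of 1 to 24 peaks, the shares of the rarer gene types are loosely fixed. tRNA and rRNA genes are repeated in near-identical copies, and how the authors placed reads in such copies is not given in the sources used here, so its part in these counts was not tested.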

How the data were processed

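Nuclei and cells of Nematostella vectensis were profiled by single-cell ATAC-seq and RNA-seq. The authors deposited the peak list analysed here as start and end positions in bp, in other words with no measured value: its score and strand columns are empty throughout. Per the submitters' processing notes, bcl2fastq, Cell Ranger ARC 2.0.1 and Cell Ranger 7.0.0 were used; the peak caller, its threshold and the genome build are not given in the sources used here. Starts were read as counted from 0 and printed as counted from 1. The list has no column for a library, so no groups of samples were compared.

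Gene spans came from the RefSeq gene table of jaNemVect1.1 (38762 genes). The 15 chromosome sequences were paired with its chromosomes by name order. Under this pairing 22.1% to 29.7% of peak centres fell at protein-coding gene ends, more than under any other pairing (at most 13.5% to 16.1%) for 15 of 15. Peaks were classed by centre: gene end, then inside, then outside. Windows of 100 kb were fixed, or centred on a peak. The chromosome-end zone was 1 Mb.

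Named were the 5 most isolated peaks, the 2 on either side of the limit, the 10 genes with the most solitary peaks, the 10 gene ends with the most isolated peaks, the 5 longest genes whose only peak was solitary, and the 3 longest runs. Members and lists were chosen with earlier results of these data known. Base composition, motifs and lists by product name were not analysed here. Alternatives covered the distance limit, gene set, windows and peak length. Python 3.11.15, numpy 2.4.6 and pandas 2.3.3 were used, and the scripts were tested on simulated data.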

Additional observations from a re-analysis of the deposited data

How the results depend on the processing

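Of 72 alternative values, 12 of them chosen after seeing the data, 48 stayed within 1 SD over chromosomes of the reported value (counts: within 1.5 times) and 24 did not. The reported value was that over both lengths together, also where isolation was judged within a single length. The distance limit mattered most. At 2500 bp there were 8927 solitary peaks, 62.1% of them short, with a median of 3755 bp to a gene end (5622.5 bp as reported). At 7500 bp there were 906, with 42.5% inside genes, 39.0% outside, 17.1% in gene-free 100 kb, 76.4% short and a median of 8738 bp. At 10000 bp there were 430, with 13.3% at gene ends, 27.7% inside, 59.1% outside, 33.3% in gene-free 100 kb, 86.0% short and a median of 17910.2 bp. At all 4 limits the gene-end share of solitary peaks stayed above that of the rest for 250-bp peaks and below it for short peaks. Gene-end windows of 200 and 1000 bp gave 17.1% and 27.1% at gene ends. With all annotated genes the share was 26.8% and the median distance 3664.25 bp. Judged among 250-bp peaks alone, an added alternative, isolated peaks lay 38.5% at gene ends, 46.4% inside and 15.2% outside. Among short peaks alone there were 8097, of which 23.1% lay at gene ends. That is counted as having stayed near the 21.6% over both lengths, but the share among solitary short peaks as reported was 8.26%. The direction against the rest was reversed, with 15.4% of the rest at gene ends. Each setting admits other peaks or ends, and what moved the values was not tested. Base composition could not be computed under any setting.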

Other observations

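The solitary peak with the most genes around it lay on chromosome 12, at bases 2301982 to 2302230, and was chosen after its values were seen. The stretch of 150 kb between its neighbours overlapped 128 protein-coding genes with a median span of 534 bp, 12 rRNA genes and 2 pseudogenes. The 100 kb centred on it overlapped 108 protein-coding genes, against at most 41 for any other solitary peak. Of the 128 genes, 4 had a peak within 500 bp. A long distance to the next peak is thus not the same as sequence without genes.

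The 11 sequences other than chromosomes held 55 peaks. Of the 35 with a neighbour on either side, 2 met the same distance rule.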
